A study of Drosophila melanogaster with 3 samples.

Results

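Binding of the GFP-tagged zinc finger factor Sp1 was described at 10 genes of the Decapentaplegic (Dpp) signalling pathway of Drosophila melanogaster. They are the ligands dpp and gbb, the receptors tkv, sax and put, the transducers Mad and Med, the nuclear cofactor schnurri (shn), the repressor brinker (brk) and the inhibitor Dad. The genes were listed by name, with results of these data already known, out of 13945 protein-coding genes on the main chromosome arms. A binding site was assigned to a gene when its summit, the base at which the peak was highest, lay in the gene body or within 10 kb of it. By that rule 72 of the 8001 optimal summits belonged to the 10 genes, and all 10 genes had at least 1. The sites were chosen by the position and signal of these same summits, so their numbers and heights are given as a description and no test was made on them.

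The data are chromatin immunoprecipitation sequencing (ChIP-seq) peak lists from 3 biological replicates of whole wandering larvae of the third instar, males and females together. All larvae came from 1 transgenic line that stably expresses Sp1 with GFP fused to its C-terminus. The labels describe the precipitation as made through GFP, while their antibody field reads Sp1. There was 1 group, with no untagged line, other stage or other tissue among the lists used here, and each list was called against 1 control alignment that all lists had in common. Whole animals were used, so a few strongly bound cells and many weakly bound cells cannot be told apart. Read depth is unknown, because the lists hold peaks alone.

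Dpp and Gbb are secreted bone morphogenetic protein (BMP) ligands. They bring type I and type II receptor kinases together, and the receptors phosphorylate the Smad protein Mad, which enters the nucleus with Med. In many tissues, the wing imaginal disc of the larva included, Mad, Med and the zinc finger protein Schnurri bind a short silencer element in brk and turn it off, and loss of the Brk repressor in turn frees Dpp targets such as Dad. Sp1 is a zinc finger factor of the family that binds GC-rich boxes, and is known in Drosophila for its part in leg development.

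The sequences below show what lay under some of the sites on which the results turn. They are read from the plus strand of the Release 6 genome (dm6), 5′ to 3′, and run 100 bases to either side of the summit. Capitals mark matches on either strand to 6 short words. Of these, GGGCGG is the GC box that Sp factors are known to bind and GGGTGG is a common variant of it. The word GGCGNC is of the kind that Mad binds, and GTCTG of the kind that Med binds. Known from many fly promoters are GAGAG, bound by the GAGA factor, as well as the word TATCGATA, bound by DREF. The first 4 are the highest sites of dpp (chr2L:2433574-2433774), tkv (chr2L:5254220-5254420), brk (chrX:7307103-7307303) and Dad (chr3R:17065068-17065268). No printed stretch overlaps an annotated untranslated region.
dpp, intron, highest site: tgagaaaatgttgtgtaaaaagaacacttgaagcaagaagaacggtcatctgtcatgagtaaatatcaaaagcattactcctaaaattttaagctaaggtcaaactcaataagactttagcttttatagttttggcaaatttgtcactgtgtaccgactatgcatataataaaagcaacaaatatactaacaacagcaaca
tkv, intron, highest site: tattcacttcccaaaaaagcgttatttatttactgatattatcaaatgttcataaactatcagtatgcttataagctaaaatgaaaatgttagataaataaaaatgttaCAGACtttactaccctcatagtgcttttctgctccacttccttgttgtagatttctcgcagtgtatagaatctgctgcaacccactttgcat
brk, upstream of the gene, highest site: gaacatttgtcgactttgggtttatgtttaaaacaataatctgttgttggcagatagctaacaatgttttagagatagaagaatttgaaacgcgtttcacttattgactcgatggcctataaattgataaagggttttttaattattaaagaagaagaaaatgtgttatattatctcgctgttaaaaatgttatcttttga
Dad, intron, highest site: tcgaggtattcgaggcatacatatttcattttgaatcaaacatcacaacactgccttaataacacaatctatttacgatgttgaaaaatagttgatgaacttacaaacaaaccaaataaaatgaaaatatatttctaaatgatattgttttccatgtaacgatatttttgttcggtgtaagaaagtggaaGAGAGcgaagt
None of these 4 windows held a GC box, and tkv and Dad each held a single one of the 6 words. The next 2 are shown because they hold several words: a weaker Dad site 213 bp from the highest one (chr3R:17065281-17065481) and a brk site 7434 bp upstream of that gene (chrX:7300405-7300605).
Dad, intron, weaker site of the pair: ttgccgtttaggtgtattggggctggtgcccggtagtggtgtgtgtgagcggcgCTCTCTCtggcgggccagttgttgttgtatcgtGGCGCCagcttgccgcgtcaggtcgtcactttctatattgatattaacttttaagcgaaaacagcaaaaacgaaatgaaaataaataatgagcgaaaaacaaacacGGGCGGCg
brk, upstream, site with several words: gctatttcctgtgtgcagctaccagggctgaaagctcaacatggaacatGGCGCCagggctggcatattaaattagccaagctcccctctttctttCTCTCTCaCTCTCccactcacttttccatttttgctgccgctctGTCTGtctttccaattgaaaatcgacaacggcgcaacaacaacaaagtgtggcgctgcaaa
The upstream region of brk also held several matches to the silencer element of Mad, Med and Schnurri, and they are printed here because that element is the DNA through which Dpp signalling acts on brk. Each line gives the 16-base match in capitals with 12 bases on either side, on the strand of the match.
brk silencer match 1, chrX:7299709-7299748, plus strand: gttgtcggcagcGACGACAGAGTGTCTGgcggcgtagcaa
brk silencer match 2, chrX:7299741-7299780, plus strand: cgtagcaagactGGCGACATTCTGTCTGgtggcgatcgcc
brk silencer match 3, chrX:7299892-7299931, minus strand: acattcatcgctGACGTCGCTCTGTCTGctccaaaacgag
brk silencer match 4, chrX:7300262-7300301, minus strand: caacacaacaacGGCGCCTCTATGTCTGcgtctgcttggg
brk silencer match 5, chrX:7301288-7301327, plus strand: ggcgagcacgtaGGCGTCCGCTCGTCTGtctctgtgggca
brk silencer match 6, chrX:7302740-7302779, plus strand: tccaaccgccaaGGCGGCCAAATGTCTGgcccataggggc
brk silencer match 7, chrX:7305750-7305789, minus strand: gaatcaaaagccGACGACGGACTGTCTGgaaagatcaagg
brk silencer match 8, chrX:7317447-7317486, plus strand: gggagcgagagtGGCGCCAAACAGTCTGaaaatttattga

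The sites were unevenly shared among the genes. The cofactor shn had 23 optimal summits and the receptor tkv 12, brk had 10 and Dad 9, and the other 6 genes had 2 to 4 each. That all 10 genes had a summit is read against a background of 68.7% of all protein-coding genes with 1 in the same window. Windows also take in neighbours: 14 of the 72 summits lay within 500 bp of the transcription start site (TSS) of another protein-coding gene and of no TSS of the member, and without them 9 of the 10 genes, all but gbb, kept a summit, against 50.4% of all genes. A summit within 500 bp of the gene's own TSS was present at 6 of the 10, namely tkv, put, Mad, Med, shn and Dad, against 27.8% of all genes. At put and Med these summits were also at the promoter of a neighbour, His4r or CycG. The share of all genes is not matched for the number of TSSs, of which shn has 5 and tkv 4.

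By place, 34 of the 72 summits lay in an intron of the gene, 13 in the flanks away from promoters, 8 at its own promoter and 3 at a promoter shared with a neighbour, beside the 14 at promoters of neighbours alone. Promoters of any gene held 34.7% of the summits at the 10 genes and 44.5% of all optimal summits. The 10 windows together span 392 kb and held 1.84 optimal summits per 10 kb, against 0.598 over all arms, which also take in sequence outside gene windows. Single windows differed widely, from 0.583 at dpp and 0.595 at Mad, near the value over all arms, to 2.94 at shn and 4.31 at brk. The joint density is thus not a trait of each gene. Heights are given as the signal that the authors deposited for each peak, whose scaling between lists is not given in the sources used here, so ranks within a list stand beside the main values. The median signal in the pooled list was 507 at the 72 summits and 415 over all optimal summits. The numbers of optimal summits per gene had a median of 2 over all genes, so dpp, sax, put and Mad with 2 or 3 each were near it.

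**Figure D1:**
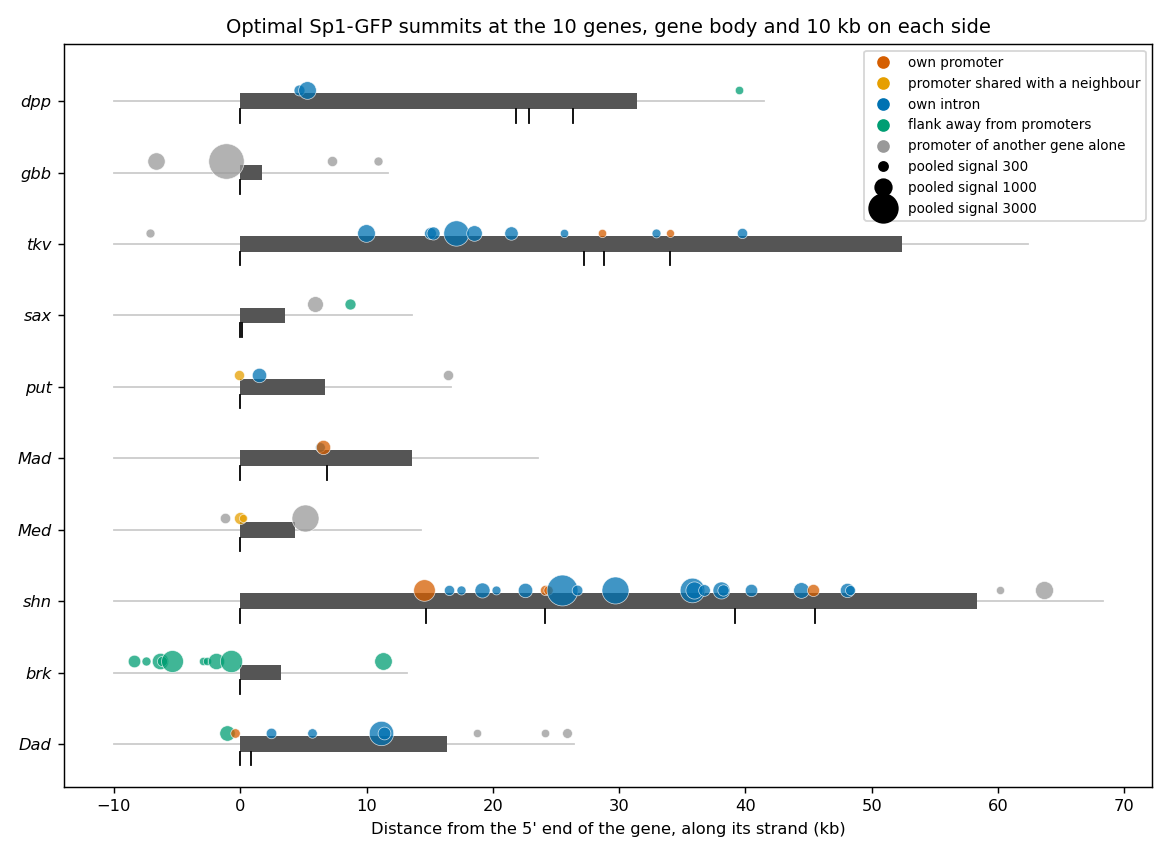
Optimal Sp1-GFP summits at the 10 genes. Each row is a gene drawn along its own strand, in kb from its 5′ end, with the body as a dark bar, the 10 kb flanks as a thin line and TSSs as ticks below; circles are summits, their area follows the pooled signal and their colour gives the location class. The 21 summits in the body of shn and the 9 upstream of brk form the most crowded stretches, and all 4 circles at gbb are grey, at promoters of other genes.

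The 3 replicates gave similar totals. Among the 8001 strongest peaks of each replicate, the 10 windows held 69, 77 and 72 summits in replicates 1, 2 and 3, with a mean of 72.7 ± 4.04 (SD, n = 3). All 10 genes had such a summit in each replicate, against 71% of all genes in replicate 1, 68.8% in replicate 2 and 69.2% in replicate 3. A peak of any height had its summit within 100 bp of the optimal one in all 3 replicates for 63 of the 72 sites, in 2 replicates for 7 and in 1 for 2. The 63 are 87.5% of the sites, against 79.3% of all optimal summits. Among the strongest peaks alone, 45 of the 72, or 62.5% (Wilson 95% interval 51.0 to 72.8%, counting error only), were found in all 3 replicates, against 52.0% of all optimal summits. The sites at 1 gene are neighbours on 1 chromosome and are not independent of each other. At the 63 sites with a peak in all 3 replicates, the replicate signals varied by 25.2% of their mean (median coefficient of variation). The other sites are left out of this value, and it may include differences in scale between the lists.

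**Figure D2:**
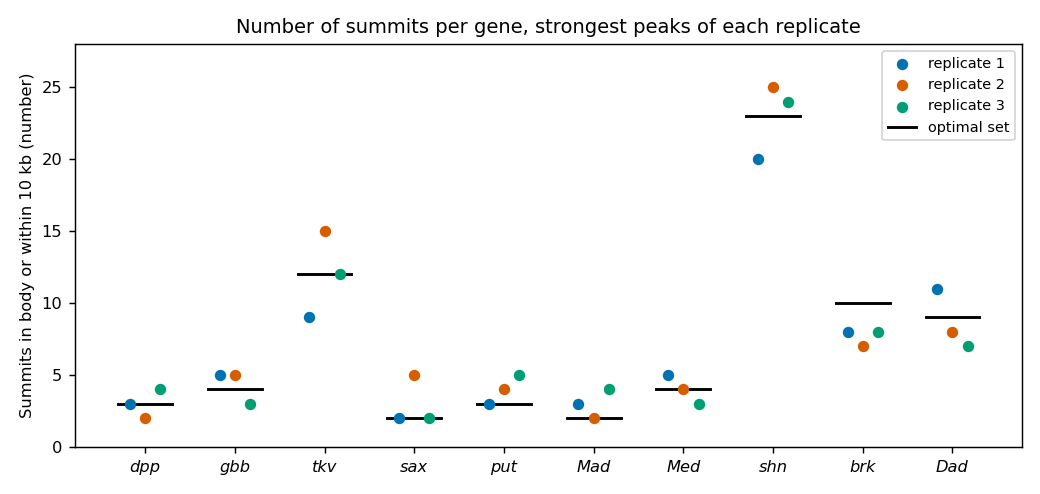
Number of summits in each gene's window. Points are the counts among the strongest 8001 peaks of replicates 1, 2 and 3, and the black line is the count in the optimal set. The shn counts of 20 to 25 lie above those of every other gene, and the tkv counts of 9 to 15 overlap those of Dad, 7 to 11.

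The ligand gene dpp (chr2L:2428372-2459823, plus strand) encodes the main BMP morphogen of the imaginal discs. It had 3 optimal summits, and 3, 2 and 4 among the strongest peaks of replicates 1, 2 and 3. The highest, in an intron 5302 bp inside the gene, had signals of 495, 335 and 348, with a mean of 393 ± 88.8 (SD, n = 3) and ranks of 783, 1237 and 1452. A smaller one stood 672 bp away with 159, 133 and 169. Replicate 1 was highest at the main site and the 3 replicates were close at the smaller. The remaining summit lay 8065 bp past the end of the gene and was weak, with 122, 69.7 and 53.7. None of the 4 annotated TSSs of dpp had an optimal summit within 500 bp, and the highest pooled peak at any of them had a signal of 68.7.

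The larval disc enhancers of dpp lie far downstream of its coding region, so sites past the 10 kb limit were also looked at, a choice made after the data were seen. Summits stood 21.5 and 27.2 kb past the end of dpp, away from the promoters of protein-coding genes. The one at 21.5 kb had 291, 296 and 306 in replicates 1, 2 and 3, with a mean of 298 ± 7.28 (SD, n = 3). The one at 27.2 kb had 340, 303 and 390, with a mean of 344 ± 43.7 (SD, n = 3). The values at 27.2 kb overlapped the 335 to 495 of the intronic dpp site, and those at 21.5 kb lay below them. A weaker summit lay between them at 24.5 kb with a pooled signal of 279, and another at 33.1 kb, with 346, was at the promoters of oaf and Slh.

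The ligand gene gbb (chr2R:23851562-23853247, plus strand) encodes the broadly expressed partner of Dpp. Its window held 4 optimal summits, and all 4 were at promoters of other genes. The highest, 1157 bp before the TSS of gbb, lay 104 bp upstream of the TSS of eIF6, a gene for a ribosome assembly factor. It had signals of 1777, 1282 and 1570 in replicates 1, 2 and 3 and a pooled rank of 62, the highest of the 72 summits. The other 3 were at Snap29 and CG5554, at bgcn and at TBPH, with pooled signals of 1107, 383 and 296. Within 500 bp of the TSS of gbb itself no peak passed the optimal threshold, and the highest pooled one had 76.5. The count at gbb is thus a count of its neighbours' promoters.

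The type I receptor gene tkv (chr2L:5219000-5271384, minus strand) encodes the main Dpp receptor kinase of the discs. Of its 12 optimal summits 11 lay in the gene body, 9 in introns and 2 at inner promoters, between 9963 and 39748 bp from the 5′ end. A count of 12 or more was reached by 0.66% of protein-coding genes, whatever their length. The tkv gene is long, at 52.4 kb, and its density of 1.66 optimal summits per 10 kb was below the 1.84 of the 10 windows together. The replicates held 9, 15 and 12 summits among their strongest peaks. The highest site, 17064 bp into the gene, was the steadiest of the highest sites, with 776, 806 and 796 in replicates 1, 2 and 3, a mean of 793 ± 15.5 (SD, n = 3) and ranks of 350, 255 and 316.

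Around that site the tkv intron held a run of further summits. At 9963 bp the signals were 244, 386 and 350, at 18548 bp they were 374, 308 and 222, and at 21411 bp they were 192, 283 and 196. No replicate was highest at all 3 of these. The promoter sites of tkv were low: at the third TSS the signals were 73.4, 117 and 89.5, and at the fourth 82.4, 119 and 56.6. The first TSS of tkv, at the 5′ end of the longest transcripts, had no optimal summit. The remaining summit of the window was at the promoters of Nin and Bub1, 7175 bp upstream.

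The type I receptor gene sax (chr2R:7806484-7810067, plus strand) encodes the receptor kinase that mainly serves Gbb. It had 2 optimal summits, both downstream of the gene. The higher lay at the promoters of puml and TTLL12 with 340, 252 and 307. The other lay 5118 bp past the end of sax, inside puml, with 177, 164 and 97.3. No optimal summit stood at either TSS of sax, where the highest pooled peak had 199.6, below the lowest optimal signal of 220. Nothing in the sax gene itself passed the optimal threshold.

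The type II receptor gene put (chr3R:14619030-14625703, minus strand) encodes the kinase that activates both type I receptors. Its promoter summit, 72 bp upstream, was at the same time 13 bp upstream of the TSS of the histone gene His4r, so it cannot be assigned to either. It had 123 and 166 in replicates 1 and 2, and replicate 3 had no summit within 100 bp of it, while its highest peak within 500 bp of the TSS had 126. The highest put site was in an intron, 1482 bp from the TSS, with 219, 188 and 344 and a mean of 251 ± 82.3 (SD, n = 3). Replicate 3 was highest at the intronic site and had its promoter peak elsewhere within the 500 bp. The last summit of the window was at the promoter of CG14853, 9784 bp downstream.

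The Smad gene Mad (chr2L:3146056-3159643, minus strand) encodes the transcription factor that the receptors phosphorylate. Its 2 optimal summits lay 242 bp apart near the inner TSS, and the first TSS had none. The higher, 343 bp upstream of the inner TSS, had 297, 302 and 126, with a mean of 242 ± 100.3 (SD, n = 3). The lower had 97.1, 102 and 131. Replicate 3 was the lowest at the higher site and the highest at the lower one, so the 2 sites were of nearly equal height in that replicate alone.

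The co-Smad gene Med (chr3R:31611046-31615375, plus strand) encodes the partner of Mad. A summit 19 bp inside its TSS had signals of 198, 192 and 167, with a mean of 186 ± 16.2 (SD, n = 3), and lay 87 bp upstream of a TSS of the cyclin gene CycG. A second summit 199 bp farther in had 83.7, 121 and 46.3. Signal at the first of these was even between replicates and signal at the second was not. Both promoter summits were shared with CycG by position. The other 2 summits of the window were at neighbours' promoters: a further CycG start, with a pooled signal of 396, and Mnat9 with CG1792, with 2688.

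The nuclear cofactor gene shn (chr2R:11159086-11217394, plus strand) encodes the large zinc finger protein that joins Mad and Med on the silencer element. It had 23 optimal summits, 21 of them in the gene body and 2 at promoters of downstream neighbours, CG9084 with Syx6 and CG7737. The strongest peaks of replicates 1, 2 and 3 held 20, 25 and 24, with a mean of 23 ± 2.65 (SD, n = 3). A count of 23 or more was reached by 0.0502% of protein-coding genes. The gene is long, and its density of 2.94 optimal summits per 10 kb was below the 4.31 of brk.

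The summits in the body of shn began at its second TSS. The first 14538 bp held none, including the first TSS, and the 21 summits ran from there to 48281 bp. Of the 5 annotated TSSs, the second, the third and the last had an optimal summit. The site at the second TSS, 179 bp upstream of it, had 708, 751 and 302, with a mean of 587 ± 248 (SD, n = 3). It was the highest promoter site of the 10 genes, and replicate 3 had less than either other replicate. At the third TSS the signals were 87.2, 143 and 154, and at the last 76.8, 206 and 270, with replicate 1 lowest at both.

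Introns of shn held the highest sites of the gene. The highest lay 1335 bp past the third TSS, with 1272, 1272 and 969 in replicates 1, 2 and 3, a mean of 1171 ± 175 (SD, n = 3) and ranks of 129, 89 and 206. The next, 5562 bp past the third TSS, had 964, 891 and 834, with a mean of 896 ± 64.8 (SD, n = 3). Replicate 3 was the lowest at both of these sites. A site 3460 bp before the fourth TSS had 666, 761 and 833, with a mean of 753 ± 83.6 (SD, n = 3), and here replicate 3 was the highest. The 21 body summits had pooled signals between 289 and 3512 with a median of 563.

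**Figure D3:**
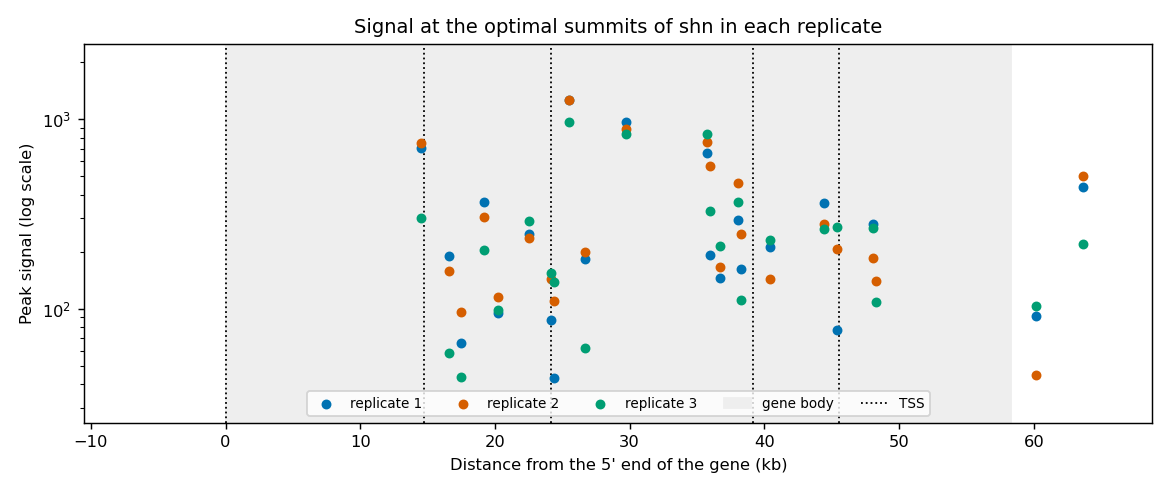
Signal of each optimal summit of shn in replicates 1, 2 and 3 (log scale), by distance in kb from the 5′ end of the gene; the grey area is the gene body and dotted lines are TSSs. The summits begin at the second TSS, and the highest, 1335 bp past the third TSS, stands at 969 to 1272 in the 3 replicates.

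The repressor gene brk (chrX:7307939-7311132, plus strand) encodes a DNA-binding repressor of Dpp target genes. It had 10 optimal summits, a count that 1.46% of protein-coding genes reached, and the strongest peaks of the 3 replicates held 8, 7 and 8. None lay in the gene or within 500 bp of its TSS, where the pooled list had no peak at all. There, replicates 2 and 3 had peaks of 19.8 and 38.8. Instead 9 summits lay upstream, between 8396 and 736 bp from the TSS, and 1 lay 8125 bp past the gene end. All 10 also lie inside the annotated bodies of CG1677, which spans brk, and of lncRNA:CR44357. The downstream summit lies inside Atg5 as well. Distance alone thus gives the 10 summits to brk.

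The highest brk site, 736 bp upstream, had 552, 454 and 805 in replicates 1, 2 and 3, with a mean of 604 ± 181 (SD, n = 3). The site 5414 bp upstream had nearly the same mean, with 663, 467 and 651 and 594 ± 110 (SD, n = 3). In both, replicate 2 was the lowest. The site 1945 bp upstream had 385, 203 and 370, and that at 8396 bp had 183, 224 and 151. A pair 206 bp apart near 6 kb upstream was split between replicates: at 6388 bp replicates 1 and 3 had 233 and 309 and replicate 2 had none, while at 6182 bp replicate 2 alone had a peak, of 450. The downstream site had 322, 333 and 469.

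Higher sites lay just past the 10 kb limit of brk, in a search to 40 kb made after the data were seen. At 13.6 kb upstream the signals were 1040, 1009 and 729, with a mean of 926 ± 171 (SD, n = 3). At 13.9 kb past the gene end, inside Dok, they were 1257, 1155 and 1037, with a mean of 1149 ± 110.1 (SD, n = 3). The replicate values of the site in Dok overlapped those of the highest shn site.

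The inhibitory Smad gene Dad (chr3R:17054007-17070408, plus strand) is itself induced by Dpp signalling and its product dampens the receptors. It had 9 optimal summits, a count that 2.07% of protein-coding genes reached, and 11, 8 and 7 among the strongest peaks of the replicates. The highest, in an intron 11161 bp into the gene, had 613, 578 and 958, with a mean of 716 ± 210.0 (SD, n = 3). A site 1086 bp upstream had 326, 328 and 262, and the promoter site 436 bp upstream had 186, 138 and 134. Replicate 3 was the highest at the intronic site and the lowest at both upstream sites. The last 3 summits of the window were at promoters of mRpS11 with Ns1, of Keap1, and of Keap1 with kuk, with pooled signals of 254 to 354.

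**Figure D4:**
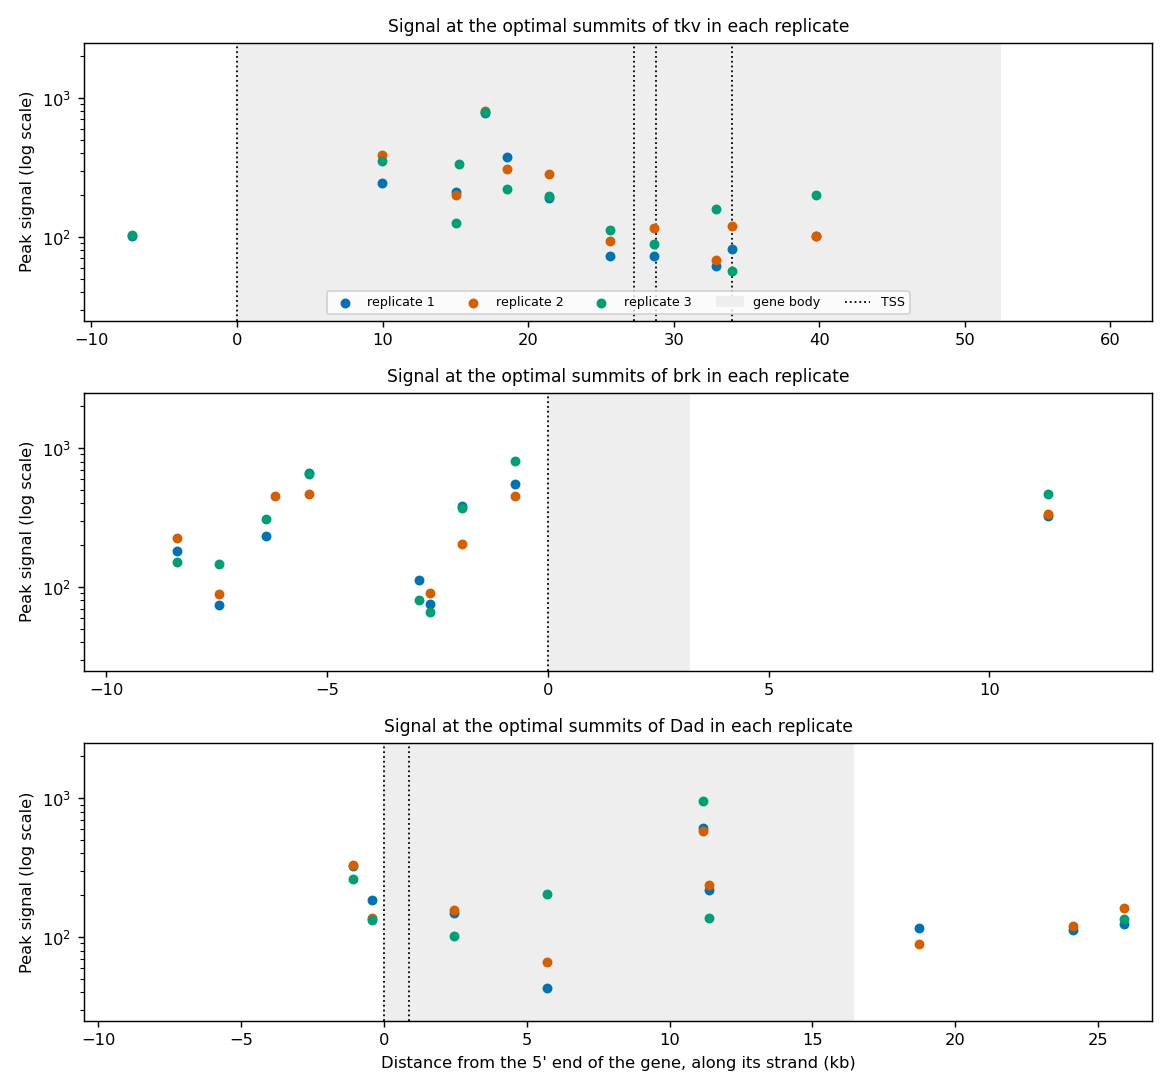
Signal of each optimal summit of tkv, brk and Dad in replicates 1, 2 and 3 (log scale), by distance in kb from the 5′ end of the gene along its strand; grey marks the gene body and dotted lines TSSs. The 11 body sites of tkv start 9963 bp in, brk has 9 sites upstream and none in its body, and the highest Dad site lies 11161 bp into the gene.

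Set side by side, leaving out sites at other genes' promoters alone, the highest sites ran in the order shn, tkv, Dad, brk, dpp, put, Mad, Med and sax. For shn and tkv the replicate values did not overlap: the lowest at shn was 969 and the highest at tkv was 806. The values of every other pair of neighbours in this order overlapped. Within replicates, which measure both sites in the same library, Dad was above brk, brk above dpp, dpp above put and Med above sax in 3 of 3. The closest of these was dpp over put in replicate 3, with 348 against 344. The order changed between replicates for tkv over Dad and Mad over Med, each held in 2 of 3, and for put over Mad, held in 1 of 3. At the low end Med had 167 to 198 and sax 97.3 to 177.

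**Figure D5:**
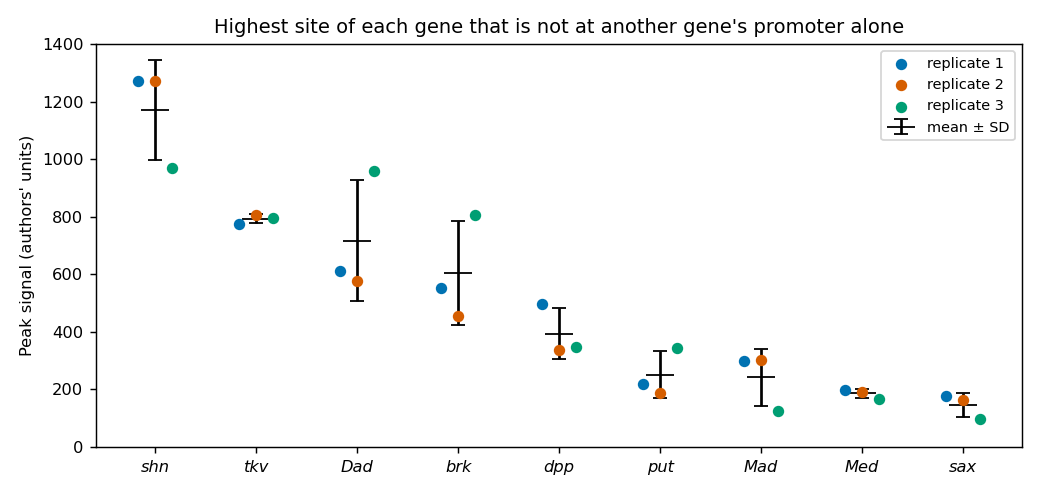
Signal of the highest site of each gene in replicates 1, 2 and 3 (points), with mean and SD, leaving out sites at another gene's promoter alone, so that gbb has none. The shn values of 969 to 1272 lie above all tkv values, and from tkv downward each gene's values overlap those of the next.

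Some summits stood close to the limits of the rule. The lowest summits that were inside the optimal set had pooled signals of 235 at tkv, 244 at Med and 246 at shn, and the highest of those just outside had 217 at gbb, 211.1 at sax and 209.6 at Dad. A further 144 pooled summits lay in the 10 windows outside the optimal set, with signals of 33.5 to 217 and a median of 74.2. By distance, the last summits inside were 9784 bp from put, 9510 bp from Dad and 9247 bp from gbb. The first outside were 10438 and 10647 bp from Dad, with 2511 and 381, and 11102 bp from Med, with 409. The 2511 site next to Dad was higher than any site counted for that gene.

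Several summits came in close pairs. Among the 10 genes, 10 pairs of neighbouring summits stood less than 250 bp apart, with gaps of 199 to 246 bp: 4 at shn, 2 at brk and 1 each at tkv, Mad, Med and Dad. By pooled signal, the weaker summit had the higher G+C content within 100 bp in all 10 pairs, against 68.5% of 596 such pairs over the whole optimal set. Of the 9 pairs with both summits in at least 1 replicate, 7 had this in every such replicate. The brk pair nearest the gene was almost level in the pooled list, with 252 and 254, and its G+C-richer summit was the stronger in both replicates that held the pair, with 112 against 74.9 in replicate 1 and 80.7 against 66.3 in replicate 3. At Mad the order turned in replicate 3, with 126 and 131 at the G+C-poorer and the G+C-richer summit. In the Dad pair printed above, the stronger summit had a pooled signal of 2184 and 29.9% G+C, and the weaker had 599 and 49.3%. In the shn pair with the largest contrast the stronger had 1065 and 28.9%, and the weaker 468 and 56.7%. Pairs were looked at after the data were seen, and the summits of a pair are not independent.

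G+C content over all 72 windows had a median of 37.8%, and 35.8% over all optimal summits. The 20 highest of the 72 had 32.1% and the 20 lowest 39.3%, and over the whole optimal set the strongest 1000 had 31.8% and the weakest 1000 had 39.3%. High sites had less G+C than low ones both at the 10 genes and over the whole set.

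Few sites held the GC box. GGGCGG on either strand was within 100 bp of 3 of the 72 summits, 2 at Dad and 1 at Med, or 4.17%, against 4.30% of all 8001. GGGTGG was at 2, or 2.78%, against 5.87%. The Mad-type word GGCGNC, which by its letters can overlap GGGCGG, was at 12, or 16.7%, against 13.6%, and the Med-type word GTCTG at 13, or 18.1%, against 17.96%. GAGAG was at 18, or 25%, against 24.9%. TATCGATA was at 2, or 2.78%, against 2.77%, at the eIF6 promoter in the gbb window and at the third TSS of tkv. These counts are small, and a match describes letters only.

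The silencer element of Mad, Med and Schnurri was not within 100 bp of any of the 72 summits, and was within 100 bp of 3 of all 8001. In a window of 250 bp it was whole at 4 of the 72, all at brk, or 5.56%, against 19 of 8001, or 0.237%. Matches were then counted in whole windows, after the data were seen. The brk window held 8, the windows of tkv and shn 1 each and those of the other 7 genes none, which is 34.5 per 100 kb at brk and 0.278 per 100 kb over all arms. The element is known from brk itself, so a high number of matches there was set in advance and is no result about Sp1. The shn match lay inside the gene, 585 bp from a summit.

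Of the 8 brk matches, 7 were upstream of the gene, among the 9 upstream summits. Their midpoints were 185 to 368 bp from the nearest optimal summit, and 6 of the 7 were 185 to 244 bp away. None was under the summit. The eighth match was 1791 bp from the downstream summit. Whole matches within 250 bp of a summit were 5 of 8 at brk, or 62.5%, where 19.2% of the window lies that close to a summit. Matches and summits both crowd upstream of brk, where the share of sequence near a summit is higher than 19.2% and was not computed. The 2 percentages therefore do not show that matches lie nearer to summits than other upstream sequence. Over all arms whole matches that close were 20 of 372, or 5.38%, where 2.85% of the sequence lies that close. The 20 include the 5 at brk. Matches 1 and 2 flank each other and share part of the printed bases, so they are not separate regions.

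Beyond the 10 genes, 34 other genes of BMP and activin signalling were looked up from a list written for this description. Of these, 24, or 70.6%, had an optimal summit in the window, close to the 68.7% of all protein-coding genes. At their own promoter 14, or 41.2%, had 1, against 27.8% of all genes. Among extracellular ligands and modulators 10 of 17 had a summit in the window (58.8%), among receptors and transducers 8 of 9 (88.9%) and among target genes 6 of 8 (75%). With so few genes in each role and a background of 68.7%, no order of the roles is read from these counts. The highest promoter sites belonged to magu, which encodes a secreted modulator of BMP spreading, with 499, 415 and 438, to nord with 420, 381 and 421, and to spict with 441, 257 and 357. The most summits were at the co-repressor gene Snoo with 14 and the glypican gene dlp with 13, followed by nej and the BMP antagonist gene sog with 9 each. All were below the 23 of shn, and Snoo and dlp were above the 12 of tkv.

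By number of summits, shn was one of a small set of genes. The 5 protein-coding genes closest to it, with bodies outside its window, were tara with 23, CG1677 with 24, ush with 22, and Eip74EF and pyd with 21 each. Densities were 4.21 per 10 kb at tara, 2.61 at ush, 2.60 at Eip74EF, 1.68 at pyd and 1.66 at CG1677, beside 2.94 at shn. CG1677 is not independent of the 10 genes, because its body takes in the whole brk region. The genes with more summits than shn were Eip75B and kirre with 34 each, sbb with 32, Tet with 28 and CG1677.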

How the data were processed

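The lists hold peaks in narrowPeak form from 3 replicates, from the replicates pooled and from the optimal set that passed the irreproducible discovery rate (IDR) step, on dm6 per the labels. Neither aligner nor peak caller nor their settings are named: all were not given in the sources used here. For each peak the authors deposited a signal value, with no stated scaling between lists. A check of the lists showed that the optimal set is the 8001 strongest of the 30000 pooled peaks, so the 8001 strongest peaks of each replicate were used beside it.

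Summits were assigned to Ensembl 115 gene models (BDGP6.54) with Python 3.11.15, pandas 2.3.3 and numpy 2.4.6; scipy 1.17.1 gave the Wilson intervals and matplotlib 3.10.9 the figures. A promoter is 500 bp to either side of an annotated TSS of a protein-coding gene. A replicate value is the signal of the highest summit within 100 bp. Sequences and words were read from the Release 6 genome. Sequences of chromosome arm 2R are not printed. The scripts were tested on simulated data.

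The 10 genes, the other gene list and the measures were chosen with earlier results of these data known. Other genes are named where their promoter holds a summit of a window, or where their count is among the 5 closest to that of shn or above it. They are also named where they lead the other list by promoter signal or by number. Dok, Atg5, lncRNA:CR44357 and the genes at dpp past 10 kb were named after their values were seen. Leaving out summits at other genes' promoters, the close pairs, the search to 40 kb and the silencer counts per window were added after the data were seen. Labels do not say how replicates were reared, so SDs may be partly technical. Alternatives were other flanks, promoter widths, distances, word windows, 1 summit per interval, the 4001 strongest of the optimal set and each replicate alone or left out.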

Additional observations from a re-analysis of the deposited data

How the results depend on the processing

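All 10 genes kept an optimal summit with flanks of 5 or 20 kb, in each replicate alone, in the 4001 strongest optimal peaks and with each replicate left out (10 to 10); with the gene body alone 7 did. The 72 summits became 43 in gene bodies alone and 41 in the 4001 strongest optimal peaks. Requiring a matching strong peak in both remaining replicates, with each replicate left out, gave 49 to 52 summits, 17 to 19 at shn, and 4 to 5 genes with a promoter summit. In the 4001 strongest optimal peaks 3 genes had a promoter summit, against 6. With promoters of 200 and 1000 bp to either side of a TSS, 4 and 7 genes did. Except for each replicate alone, shares of all genes under these changed rules are not given. The gene counts under them therefore have no background. The share of sites found in all 3 replicates was 40.3% within 50 bp and 87.5% when peaks of any height counted, against 62.5%. Over all optimal summits the same 3 shares were 39.4%, 79.3% and 52.0%, so within 50 bp the sites of the 10 genes were level with the whole set. For the highest sites, leaving out promoters of other genes moved the mean to 146 at sax and 186 at Med. Of the word counts, windows of 50 or 250 bp moved the numbers with the length read. Within 250 bp GGCGNC was at 54.2% of the 72 summits against 42.7% of all, and GTCTG at 54.2% against 45.8%. GAGAG was level, at 55.6% against 55.2%. Lower than over all summits were GGGCGG at 12.5% against 14.7%, GGGTGG at 13.9% against 17.5% and TATCGATA at 2.78% against 5.41%. No paired analysis between groups could be made, since there is 1 group; sites of different genes were compared within each replicate. Depth is unknown, so a missing summit says only that no peak was listed, and 1 control alignment serves all lists, so an error in it would be shared by the 3 replicates.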
